A study of Rattus norvegicus with 9 samples.

Results

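The genes described here are 10 transcription factor genes of the AP-1 and immediate-early group, picked by symbol out of the 22050 genes of a deposited per-library table. They are the FOS family (Fos, Fosb, Fosl1 and Fosl2), the JUN family (Jun, Junb and Jund), and Egr1, Srf and Myc. The table came from RNA-seq of NRK-49F, an established rat fibroblast line from kidney, in a series whose title names small molecules and kidney fibrosis. All 9 libraries came from wild-type cells given TGF-β1, a cytokine that turns fibroblasts towards contractile, matrix-producing myofibroblasts, for 48 h. The 3 groups were TGF-β1 with YWCH-4A, TGF-β1 with YEXX-2A, and TGF-β1 with vehicle, with 3 libraries each. Both compounds are known here by code name alone, their dose and timing are not given in the labels, and samples lacking TGF-β1 were not analysed here, so no value below shows what TGF-β1 itself did.

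AP-1 is a dimer of basic leucine zipper proteins: JUN proteins pair with each other or with FOS proteins, while FOS proteins need a partner such as JUN to bind DNA. Immediate-early genes respond to growth factors within minutes without new protein synthesis, and serum response factor (SRF), bound at CArG boxes, carries much of that response for Fos and Egr1. In fibroblasts AP-1 works beside SMAD proteins downstream of TGF-β, and SRF with the actin-regulated MRTF cofactors drives contractile genes. A time of 48 h lies well past the first wave of an immediate-early response to TGF-β1, and when the compounds were added is not given.

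Promoters show how the members differ in the sites nearest their start. RefSeq (build GRCr8) held a promoter of 300 bases, 250 before the start and 50 after it, for 7 of the 10 members: Fosb, Fosl1, Fosl2, Junb, Jund, Egr1 and Srf. Each was searched on both strands for the CArG box, the AP-1 site TGANTCA, the CRE site TGACGTCA, the E-box CACGTG, the EGR site GCGNGGGCG, the κB site and TATAAA, and the matches did not overlap. The 4 shown belong to the 2 genes with CArG boxes (Egr1 and Srf) and to the AP-1 members with the highest level of their families (Junb and Fosl1). Capitals mark the matches, and all 4 lie on the + strand, at chr18:26736828-26737127 (Egr1), chr9:21923826-21924125 (Srf), chr19:40080876-40081175 (Junb) and chr1:212183635-212183934 (Fosl1).
Egr1: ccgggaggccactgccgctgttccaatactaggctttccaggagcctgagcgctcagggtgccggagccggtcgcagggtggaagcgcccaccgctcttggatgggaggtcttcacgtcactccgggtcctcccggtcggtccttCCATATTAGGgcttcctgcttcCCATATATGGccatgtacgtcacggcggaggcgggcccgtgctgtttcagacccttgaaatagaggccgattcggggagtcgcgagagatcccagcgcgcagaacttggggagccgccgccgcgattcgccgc
Srf: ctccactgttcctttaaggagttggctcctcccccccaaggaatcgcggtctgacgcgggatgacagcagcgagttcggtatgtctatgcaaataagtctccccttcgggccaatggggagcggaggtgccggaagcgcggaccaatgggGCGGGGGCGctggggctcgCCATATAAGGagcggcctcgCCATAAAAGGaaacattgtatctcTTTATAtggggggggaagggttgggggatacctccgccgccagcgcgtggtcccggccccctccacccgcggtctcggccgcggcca
Junb: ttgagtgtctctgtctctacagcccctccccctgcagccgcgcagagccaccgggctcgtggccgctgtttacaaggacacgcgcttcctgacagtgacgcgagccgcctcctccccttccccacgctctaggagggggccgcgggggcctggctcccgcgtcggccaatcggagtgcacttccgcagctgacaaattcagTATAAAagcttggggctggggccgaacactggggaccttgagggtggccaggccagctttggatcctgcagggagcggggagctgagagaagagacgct
Fosl1: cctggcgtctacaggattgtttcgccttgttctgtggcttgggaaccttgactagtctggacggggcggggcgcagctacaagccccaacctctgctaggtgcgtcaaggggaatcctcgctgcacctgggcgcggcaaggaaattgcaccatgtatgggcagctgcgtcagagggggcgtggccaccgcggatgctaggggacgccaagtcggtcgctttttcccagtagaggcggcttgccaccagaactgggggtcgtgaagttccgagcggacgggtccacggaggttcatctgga
Egr1 held 2 CArG boxes, CCATATTAGG and CCATATATGG. Srf, whose product binds this element, also held 2, CCATATAAGG and CCATAAAAGG, with 1 EGR site (GCGGGGGCG) and 1 TATAAA on the other strand (TTTATA). A CArG box was present in 1.63% of the 33365 promoters of this length, an EGR site in 4.99% and TATAAA in 14.2%. The Junb window held 1 TATAAA, and the Fosl1 window held none of the 7 motifs. Jund held 1 CRE site, found in 1.83% of promoters, and 3 EGR sites, Fosl2 held 2 EGR sites and Fosb 1 TATAAA. None of the 7 windows held an AP-1 site (7.34% of promoters), an E-box (6.43%) or a κB site (4.19%), which says only that these letters are not in these windows.

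Library totals ran between 13675880 and 21923706 estimated counts. Per gene, the level is given as CPM (counts scaled to a common library total) on library sizes scaled with TMM factors, and genes are compared with each other on FPKM, which also divides by gene length. The spread of libraries was unequal, with a biological coefficient of variation of 3.67% in the YWCH-4A group, 7.4% in the YEXX-2A group and 16.7% in the vehicle group, or 4.68% for vehicle without replicate 2. On TMM-scaled CPM, vehicle replicate 2, which had the lowest TMM factor (0.898), was the highest vehicle library for 10 of the 10 members. On FPKM another vehicle library was higher for Fos, Fosl2, Jun and Egr1. How many of all tested genes share this was not counted. Differences were tested with edgeR's quasi-likelihood test over 11473 genes, with all 10 members among them, and the threshold for a call was an adjusted p under 0.05. P-values measure the spread between libraries, since nothing says how the cultures were kept apart. In bulk RNA, fewer cells of a type and less RNA per cell cannot be told apart.

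The fibroblast label was checked with marker genes. Summed FPKM of 9 fibroblast markers was 3628 to 3854 with YWCH-4A, 8518 to 9059 with YEXX-2A and 10180 to 11570 in vehicle, mostly from Col1a1, Col3a1 and Vim, while Thy1 and Dcn stayed at or below 0.66 and 0.14 FPKM in every library. The sum of 8 leukocyte markers was 56.45 to 63.25 with YWCH-4A, 33.23 to 36.48 with YEXX-2A and 37.1 to 45.55 in vehicle, nearly all from Cd68, and the pan-leukocyte gene Ptprc did not pass 0.02 FPKM. The sum of 8 kidney epithelial markers was 554.9 to 578.7 with YWCH-4A, 862.6 to 898.5 with YEXX-2A and 951.5 to 1147 in vehicle, nearly all from Krt8, with Epcam, Krt18 and Umod listed at 0 throughout. Of 5 endothelial markers the sum stayed at or below 0.68 FPKM. These sums move with the groups compared below, and their part in the results was not tested.

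Levels of the 10 genes spanned a wide range. In vehicle libraries Junb was highest at 129.1 ± 13.2 FPKM (SD, n = 3), followed by Myc at 91.09 ± 4.87, Jund at 63.72 ± 11.0, Fosl1 at 54.56 ± 3.62, Jun at 39.56 ± 1.08 and Srf at 19.68 ± 2.33. Egr1 was at 9.677 ± 1.41 FPKM, Fosl2 at 3.44 ± 0.13, Fosb at 1.44 ± 0.195 and Fos at 0.9 ± 0.02. The ranges of Jund and Fosl1 overlapped in this order, and those of the other neighbours did not. With YWCH-4A the order changed: Junb stood at 213.8 ± 5.05 FPKM, Jund came next at 57.89 ± 1.41 and Myc was the third at 38.74 ± 1.14, with Fosl1 (26.93 ± 0.653) overlapping Jun (26.05 ± 0.82) and Egr1 (6.507 ± 0.903) overlapping Fosl2 (5.007 ± 0.631). With YEXX-2A the order was that of vehicle, from Junb at 117.1 ± 1.63 FPKM to Fosb at 1.59 ± 0.243 and Fos at 1.5 ± 0.262, the last pair overlapping. The FPKM of Fosl2 rests on an implied gene model of 0.744 kb, the shortest of the 10, against 4.1 kb for Srf, the longest. FPKM divides by this length, but a gene model that is too short also misses the reads outside it. The Fosl2 level on FPKM or CPM, its share of the FOS family and the FOS sums below may therefore be off. The direction is not known here.

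**Figure D1:**
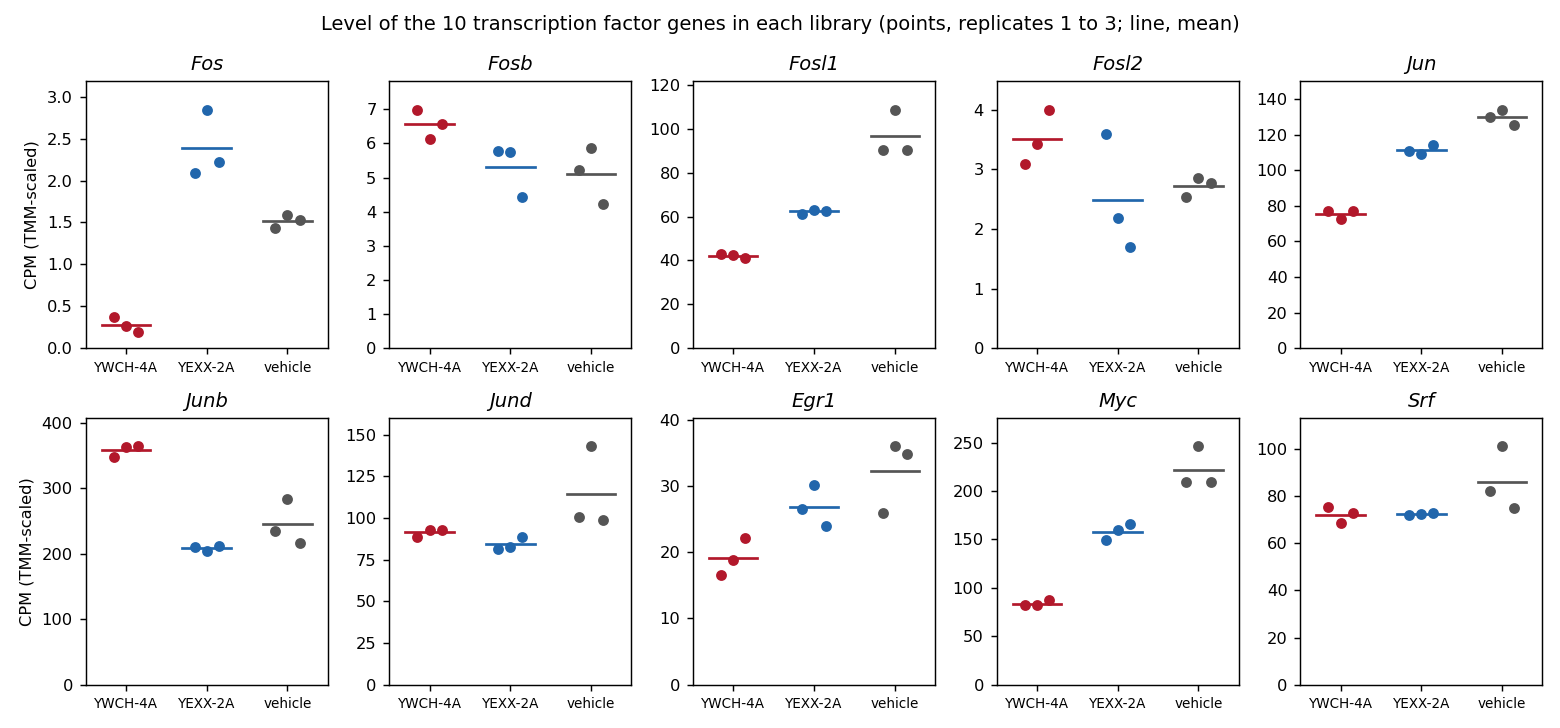
Level of each gene in CPM on TMM-scaled library sizes, with an axis starting at 0 for each gene; points are libraries (replicates 1 to 3, left to right), and lines are group means. The YWCH-4A libraries lie apart from both other groups for Fos, Fosb, Fosl1, Jun, Junb, Jund, Egr1 and Myc (between them for Jund), and vehicle replicate 2 is the highest vehicle library in every panel.

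With YWCH-4A, against vehicle, 6 of the 10 genes were called, 1 higher (Junb) and 5 lower (Fos, Fosl1, Jun, Egr1 and Myc). Of all tested genes 30.6% were called in this comparison, 15.7% higher and 14.9% lower. With YEXX-2A, against vehicle, 5 of the 10 were called, 1 higher (Fos) and 4 lower (Fosl1, Jun, Jund and Myc), beside 36.1% of all tested genes, 17.6% higher and 18.5% lower. Without YEXX-2A replicate 1 or replicate 2 the YEXX-2A calls came down to 2, Fosl1 and Myc. Between the compounds, YWCH-4A against YEXX-2A, 6 of the 10 were called, Junb higher and Fos, Fosl1, Jun, Egr1 and Myc lower, beside 31.3% of all tested genes, 16.2% higher and 15.1% lower. The split of calls differed under limma-trend on log2(FPKM + 1), which changes the test, the scale and the pseudocount together: 78.1% of calls were higher with YWCH-4A than in vehicle (51.2% on TMM-scaled counts), 62% with YEXX-2A than in vehicle (48.8%) and 72.6% with YWCH-4A than with YEXX-2A (51.7%). With DESeq2 size factors in place of TMM, a change of scaling alone, these shares were 47.7%, 49% and 47.8%. The median log2 change of all tested genes between YWCH-4A and vehicle was 0.18 on log2(FPKM + 1), 0.03 on TMM-scaled counts and 0.01 with DESeq2 size factors. The CPM values of the groups did not overlap for 9 of the 10 genes between YWCH-4A and vehicle (46% of all tested genes), for 7 between YEXX-2A and vehicle (51.6%) and for 8 between the compounds (58.9%). The comparisons share libraries, so they are not independent of each other. The median of the 10 log2 fold changes was -0.54 for YWCH-4A against vehicle, -0.24 for YEXX-2A against vehicle and -0.25 between the compounds, where the median of all tested genes was 0.03, 0.01 and -0.00.

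**Figure D2:**
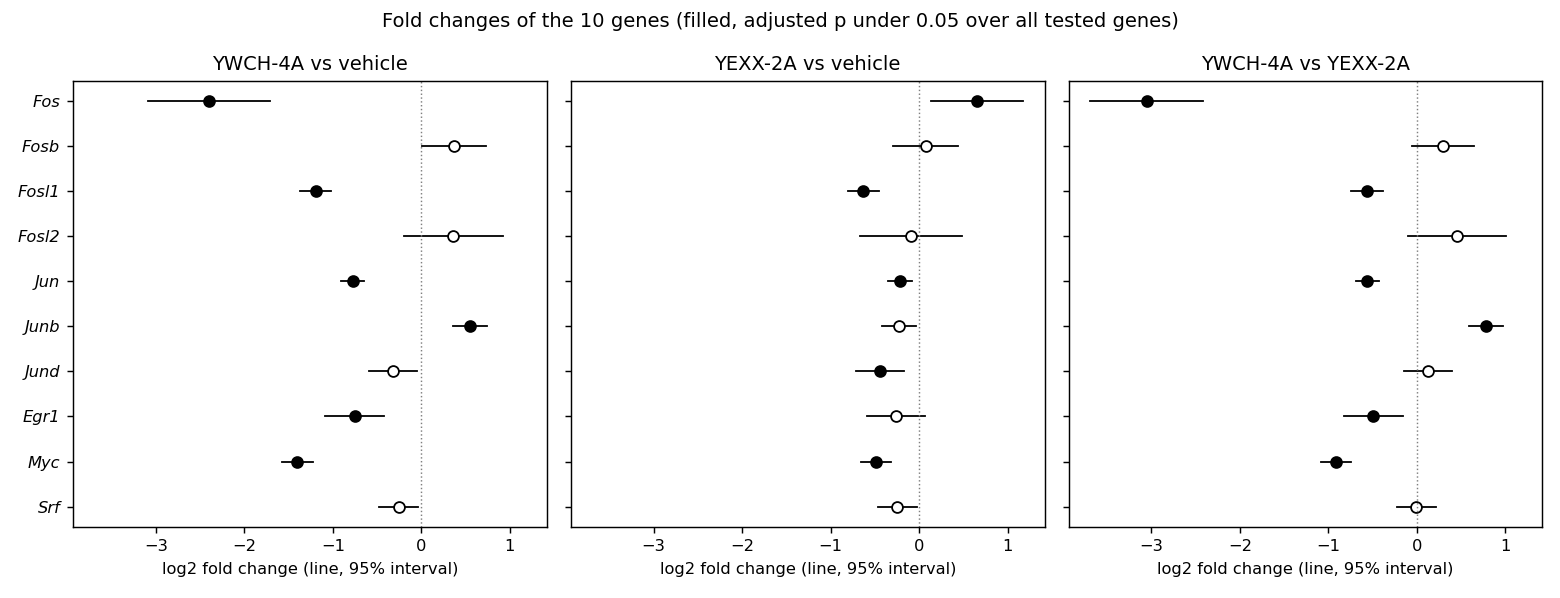
Log2 fold change of each gene in the 3 comparisons; points are estimates, lines their 95% intervals, and filled points have an adjusted p under 0.05 over all tested genes. Fos lies farthest below 0 in both panels with YWCH-4A on top (-2.40 and -3.06), and Junb is the filled point above 0 in both.

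In the FOS family, Fos, the founding member and classical immediate-early gene, was lowest with YWCH-4A. Its level was 0.375, 0.259 and 0.188 CPM in YWCH-4A libraries, 2.09, 2.85 and 2.22 CPM in YEXX-2A libraries and 1.43, 1.58 and 1.53 CPM in vehicle libraries. The 3 groups did not overlap, but the counts were small, 16 in YWCH-4A libraries together, 132 in YEXX-2A libraries and 63 in vehicle libraries. With YWCH-4A Fos fell by 2.40 on the log2 scale against vehicle (SE 0.31, edgeR adjusted p = 0.000193) and by 3.06 against YEXX-2A (SE 0.29, edgeR adjusted p = 2.2e-05). With YEXX-2A Fos was higher than in vehicle by 0.66 (SE 0.23, edgeR adjusted p = 0.0496). That call rested on every library: leaving out any 1 of the 9 gave an edgeR adjusted p between 0.0607 and 0.199, and DESeq2 gave 0.13.

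Fosl1, which encodes FRA1, carried most FOS family transcript and differed between all 3 groups. It measured 42.9, 42.3 and 41.3 CPM with YWCH-4A, 61.4, 63.2 and 62.7 CPM with YEXX-2A and 90.6, 108.8 and 90.4 CPM in vehicle. Every YWCH-4A library was below every YEXX-2A library, and every YEXX-2A library below every vehicle library. Fosl1 fell by 1.20 on the log2 scale with YWCH-4A (SE 0.08, edgeR adjusted p = 1.57e-06) and by 0.63 with YEXX-2A (SE 0.08, edgeR adjusted p = 0.00117), both against vehicle. It was lower with YWCH-4A than with YEXX-2A by a log2 change of -0.57 (SE 0.08, edgeR adjusted p = 0.000443).

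The other two FOS genes were low and not called. Fosb, which encodes a FOS protein with a strong activation domain, had 6.99, 6.12 and 6.57 CPM with YWCH-4A, 5.78, 5.75 and 4.44 CPM with YEXX-2A and 5.21, 5.86 and 4.23 CPM in vehicle. All YWCH-4A libraries lay above all others, by a log2 change of 0.37 against vehicle (SE 0.16, 95% interval 0.00 to 0.73, edgeR adjusted p = 0.115). The edgeR adjusted p was 0.0395 without vehicle replicate 2 and up to 0.286 without another library. Fosl2, which encodes FRA2, had 3.10, 3.42 and 4.002 CPM with YWCH-4A, 3.59, 2.19 and 1.70 CPM with YEXX-2A and 2.54, 2.85 and 2.77 CPM in vehicle. YEXX-2A replicate 1 lay among the YWCH-4A libraries. The log2 change of Fosl2 was 0.36 for YWCH-4A against vehicle (95% interval -0.20 to 0.93) and 0.45 for YWCH-4A against YEXX-2A (95% interval -0.10 to 1.00). The second had an edgeR adjusted p of 0.0247 without YEXX-2A replicate 1, against 0.189 with all libraries and up to 0.426 without another library. For YEXX-2A against vehicle the log2 change was 0.07 for Fosb (95% interval -0.29 to 0.44) and -0.09 for Fosl2 (95% interval -0.67 to 0.49).

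In the JUN family, Junb and Jun moved in opposite directions with YWCH-4A. Jun, the strongest activator of the family, had 77.2, 72.7 and 77.3 CPM with YWCH-4A, 111.2, 109.4 and 114.5 CPM with YEXX-2A and 129.8, 134.2 and 125.4 CPM in vehicle. The 3 groups did not overlap, with YWCH-4A lowest and vehicle highest. Jun fell with YWCH-4A by 0.78 on the log2 scale against vehicle (SE 0.06, edgeR adjusted p = 3.91e-06) and by 0.56 against YEXX-2A (SE 0.06, edgeR adjusted p = 5.55e-05). With YEXX-2A it was lower than in vehicle by a log2 change of -0.22 (SE 0.06, edgeR adjusted p = 0.0219), a call lost without YEXX-2A replicate 1 (0.0707), without YEXX-2A replicate 2 (0.0925), in a fit of only the groups compared (0.0761) and on log2(FPKM + 1) (limma-trend adjusted p = 0.0705).

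Junb, a weaker activator that can restrain Jun at some promoters, had 348, 364 and 364 CPM with YWCH-4A, 210.5, 204.8 and 212.3 CPM with YEXX-2A and 234.9, 283.7 and 216.9 CPM in vehicle. Every YWCH-4A library was above every other library. Junb rose with YWCH-4A by 0.55 on the log2 scale against vehicle (SE 0.09, edgeR adjusted p = 0.00082) and by 0.78 against YEXX-2A (SE 0.09, edgeR adjusted p = 8.05e-05). The YEXX-2A libraries lay below the vehicle libraries, by a log2 change of -0.23 (SE 0.09, edgeR adjusted p = 0.0616). Without vehicle replicate 3 the adjusted p was 0.0145. With 1 library left out this change came as near 0 as -0.11, and the edgeR adjusted p reached 0.17.

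Jund, the most constitutively expressed JUN gene, had 88.8, 92.9 and 92.7 CPM with YWCH-4A, 81.6, 82.4 and 88.5 CPM with YEXX-2A and 100.7, 142.9 and 99.0 CPM in vehicle. Vehicle replicate 2 stood 0.52 log2 units above the mean of the other vehicle libraries, the largest such excess of the 10 genes. With YEXX-2A Jund fell by 0.44 on the log2 scale against vehicle (SE 0.12, edgeR adjusted p = 0.0232), and the call was lost without YEXX-2A replicate 1 (0.0764), without YEXX-2A replicate 2 (0.0856) and in a fit of only the groups compared (0.0682). With YWCH-4A the log2 change was -0.32 (SE 0.12, edgeR adjusted p = 0.0736). The adjusted p was 0.0459 without vehicle replicate 1, 0.0276 without vehicle replicate 3 and 0.0434 with DESeq2. With 1 library left out this change came as near 0 as -0.13, and the edgeR adjusted p reached 0.189. Between the compounds the log2 change was 0.12 (95% interval -0.15 to 0.39, edgeR adjusted p = 0.486). The edgeR adjusted p there was 0.0394 without vehicle replicate 2 and up to 0.668 without another library.

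The make-up of both families differed between groups. Fosl1 made up 78.73% ± 1.54 of summed FOS family FPKM with YWCH-4A, 85.39% ± 2.93 with YEXX-2A and 90.41% ± 0.374 in vehicle (SD, n = 3 each). The share of Fosl2 was 14.65% ± 1.92 with YWCH-4A, 7.583% ± 2.84 with YEXX-2A and 5.717% ± 0.433 in vehicle. On CPM, which does not divide by gene length, the Fosl2 share was 6.69% with YWCH-4A, 3.43% with YEXX-2A and 2.58% in vehicle. Junb made up 71.81% ± 0.31 of the JUN family with YWCH-4A, 57.63% ± 0.625 with YEXX-2A and 55.56% ± 0.713 in vehicle. The share of Jun was 8.753% ± 0.416 with YWCH-4A, 17.76% ± 0.0115 with YEXX-2A and 17.14% ± 1.78 in vehicle, and that of Jund 19.44% ± 0.11, 24.61% ± 0.635 and 27.3% ± 2.04 in the same groups.

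The ratio of Junb to Jun separated YWCH-4A from both other groups. It was 7.82, 8.67 and 8.16 in YWCH-4A libraries, 3.28, 3.24 and 3.21 in YEXX-2A libraries and 3.14, 3.66 and 3.00 in vehicle libraries, as a ratio of FPKM. The YWCH-4A libraries were 2.52 times the vehicle mean and 2.53 times the YEXX-2A mean, while YEXX-2A libraries lay within the vehicle range. An exact two-sided permutation test gave p = 0.1 for YWCH-4A against vehicle and against YEXX-2A, the smallest that 3 against 3 allows, and p = 1 for YEXX-2A against vehicle. This ratio is taken within a library and does not depend on how libraries are scaled.

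Summed FOS family FPKM was 34.4, 34.2 and 34.0 with YWCH-4A, 44.9, 44.6 and 42.2 with YEXX-2A and 58.6, 64.6 and 57.8 in vehicle. The groups did not overlap, and this order also held on TMM-scaled CPM per kilobase, at 32.25, 44.05 and 64.32 in the same groups. Summed JUN family FPKM was 291, 302 and 300.4 with YWCH-4A, 203, 200.04 and 206 with YEXX-2A and 227, 258 and 212 in vehicle. On TMM-scaled CPM per kilobase the JUN sum of the YWCH-4A libraries, 274 to 285, overlapped that of the vehicle libraries, 221 to 288, and the ratio of means was 1.13, against 1.28 on FPKM. JUN over FOS transcript was 8.707 ± 0.212 with YWCH-4A, 4.634 ± 0.225 with YEXX-2A and 3.846 ± 0.165 in vehicle (SD, n = 3 each), with no overlap between groups and an exact two-sided permutation p = 0.1 for each of the 3 pairs.

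**Figure D3:**
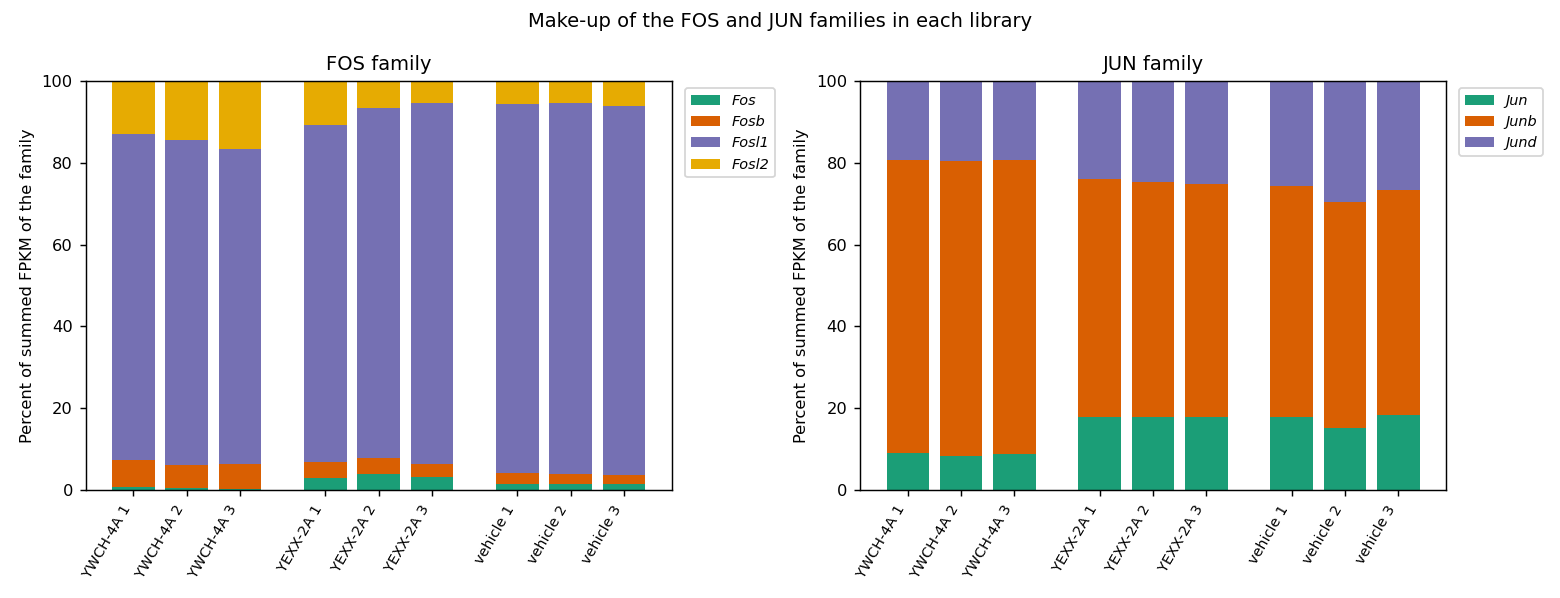
Share of each gene in the summed FPKM of its family, as stacked bars that add to 100%, for every library. Junb takes 71.5% to 72.12% of the JUN family in YWCH-4A libraries and 55% to 58.26% in the others, and Fosl1 is the largest part of the FOS family throughout.

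Egr1, a zinc finger immediate-early factor that binds GC-rich sites, had 16.6, 18.8 and 22.1 CPM with YWCH-4A, 26.5, 30.2 and 23.9 CPM with YEXX-2A and 26.0, 36.0 and 34.8 CPM in vehicle. The YWCH-4A libraries lay below all others, and the YEXX-2A libraries overlapped vehicle. Egr1 fell with YWCH-4A by 0.75 on the log2 scale against vehicle (SE 0.15, edgeR adjusted p = 0.00346). Against YEXX-2A the log2 change was -0.49 (SE 0.15, edgeR adjusted p = 0.0298), a call lost without YEXX-2A replicate 1 (0.0725) or 2 (0.125) and without YWCH-4A replicate 1 (0.128) or 2 (0.0889), and with limma-trend on log2(FPKM + 1) (0.0673). For YEXX-2A against vehicle it was -0.26 (95% interval -0.59 to 0.07, edgeR adjusted p = 0.18).

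Srf, whose product occupies CArG boxes such as those shown in the Egr1 promoter and in its own, had 75.2, 68.4 and 72.9 CPM with YWCH-4A, 72.2, 72.3 and 72.8 CPM with YEXX-2A and 82.2, 101.1 and 74.9 CPM in vehicle. The YEXX-2A range lay within that of YWCH-4A, with a log2 change of -0.00 between them (95% interval -0.22 to 0.21, edgeR adjusted p = 0.978). Against vehicle the log2 change was -0.25 with YWCH-4A (SE 0.10, edgeR adjusted p = 0.0785) and -0.25 with YEXX-2A (SE 0.10, edgeR adjusted p = 0.0705). Both edgeR adjusted p-values passed the threshold without vehicle replicate 3, at 0.0167 and 0.0165, but reached 0.233 and 0.165 without another library. With 1 library left out the log2 changes came as near 0 as -0.12 with YWCH-4A and -0.12 with YEXX-2A. Under the other alternatives they came as near 0 as -0.07 and -0.15.

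Myc, a driver of ribosome production and growth, had 82.4, 81.9 and 87.2 CPM with YWCH-4A, 149.1, 159.3 and 165.7 CPM with YEXX-2A and 209.3, 246.1 and 209.8 CPM in vehicle. The 3 groups were well apart, in the same order as for Fosl1 and Jun. Myc fell by 1.40 on the log2 scale with YWCH-4A (SE 0.08, edgeR adjusted p = 3.6e-07) and by 0.49 with YEXX-2A (SE 0.08, edgeR adjusted p = 0.00306), both against vehicle. It was lower with YWCH-4A than with YEXX-2A by a log2 change of -0.91 (SE 0.08, edgeR adjusted p = 1.04e-05). The Myc and Fosl1 calls in the 3 comparisons held under each alternative run.

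Jun and Myc followed each other closely over the 9 libraries (Pearson's r = 0.992 of log2 CPM), and Junb ran opposite to Fos (r = -0.949). Such values mostly restate the 3 group means and are a description only. Among 8219 genes that averaged at least 10 CPM, the pattern most like that of Myc was Gars (r = 0.998), then Slc3a2 and Mthfd2 (both 0.997), and the nearest to Fosl1 was Wars1 (0.995). Gars and Wars1 encode aminoacyl-tRNA synthetases, Slc3a2 an amino acid transporter subunit and Mthfd2 a mitochondrial folate enzyme. The nearest to Junb was B4galt3, a galactosyltransferase (0.997), then Nfkb2, an NF-κB subunit (0.993), and Chst15 (0.992). The nearest gene was Chd3 for Jun (0.998), Dctn1 for Jund (0.996), Cckar for Fos (0.987) and Cyb5r1 for Egr1 (0.962).

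Upstream of AP-1, MAP kinases carry signals from receptors and stress to FOS and JUN proteins. The list counts from here on stand beside the shares of all tested genes called. These were 30.6% with YWCH-4A and 36.1% with YEXX-2A, both against vehicle, and 31.3% between the compounds. Of 16 tested genes of these kinases, 1 was higher and 2 lower with YWCH-4A, and 4 were higher and 6 lower with YEXX-2A, both against vehicle. Without YEXX-2A replicate 1 the YEXX-2A counts were 2 and 2, and without replicate 2 they were 2 and 1. On log2(FPKM + 1) the counts were 3 higher and 0 lower with YWCH-4A, and 4 and 4 with YEXX-2A. Map2k4, a kinase that activates JNK, rose by 0.61 on the log2 scale with YWCH-4A (SE 0.16, edgeR adjusted p = 0.0145) and by 0.85 with YEXX-2A (SE 0.16, edgeR adjusted p = 0.00593). In vehicle Map2k4 had 8.921, 5.862 and 9.622 CPM, with replicate 2 lowest. Map3k5, the stress kinase ASK1, rose by 0.51 with YEXX-2A (edgeR adjusted p = 0.00328), and Mapk8, which encodes JNK1, was lower with YWCH-4A than with YEXX-2A by a log2 change of -0.75 (edgeR adjusted p = 0.00635).

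Of 13 genes that report or damp ERK signalling, 3 were higher and 5 lower with YWCH-4A, and 2 were higher and 5 lower with YEXX-2A, both against vehicle; the YEXX-2A count of lower genes was 3 without vehicle replicate 1, without YEXX-2A replicate 1 or 2 and without YWCH-4A replicate 1 or 2. On log2(FPKM + 1) the counts were 4 and 4 with YWCH-4A, and 2 and 3 with YEXX-2A. The ERK inhibitor gene Spry2 measured 52.2, 53.2 and 51.0 FPKM with YWCH-4A, 23.7, 20.4 and 19.5 with YEXX-2A and 16.2, 14.9 and 15.2 in vehicle, a rise of 1.58 with YWCH-4A against vehicle (SE 0.08, edgeR adjusted p = 1.85e-07). The ERK phosphatase gene Dusp6 fell by 0.49 and Phlda1 by 0.72 with YWCH-4A against vehicle (edgeR adjusted p = 0.000122 and 6.98e-05). With YEXX-2A the ETS factor genes Etv4 and Etv5 fell by 0.78 and 0.36 against vehicle (edgeR adjusted p = 0.000736 and 0.01), and Etv5 fell by 0.61 with YWCH-4A (edgeR adjusted p = 0.00018).

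Of 16 other immediate-early genes tested, 2 were higher and 5 lower with YWCH-4A, and 1 was higher and 5 lower with YEXX-2A, both against vehicle. Without vehicle replicate 2 the YWCH-4A counts were 6 and 5, with limma-trend on log2(FPKM + 1) they were 8 higher and 4 lower, and with DESeq2 size factors 2 and 5. Ccn1, a matricellular protein gene, had 45.3, 46.4 and 51.4 FPKM with YWCH-4A, 171, 183 and 191 with YEXX-2A and 179, 237 and 196 in vehicle. It fell by 2.28 on the log2 scale with YWCH-4A against vehicle (SE 0.12, edgeR adjusted p = 2.88e-07). Klf2, a zinc finger factor, fell by 1.93 with YWCH-4A and by 0.92 with YEXX-2A (edgeR adjusted p = 5.02e-05 and 0.00962). Ier3, a stress-responsive survival gene, fell by 0.52 with YEXX-2A against vehicle (edgeR adjusted p = 0.00308) and was higher with YWCH-4A than with YEXX-2A by 0.57 (edgeR adjusted p = 0.00049).

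Among 9 tested genes of other bZIP proteins that can dimerise with AP-1 proteins, 2 were higher and 1 lower with YWCH-4A, and 1 was higher and 1 lower with YEXX-2A, both against vehicle. On log2(FPKM + 1) the YWCH-4A counts were 4 and 1. Jdp2, a repressor that pairs with JUN, fell by 0.66 with YWCH-4A (SE 0.08, edgeR adjusted p = 0.000192). Batf2, at a mean of 1.34 CPM, rose by 1.51 with YWCH-4A (SE 0.39, edgeR adjusted p = 0.0129). Maff, a small MAF gene, fell by 0.91 with YEXX-2A (SE 0.13, edgeR adjusted p = 0.00188) and was higher with YWCH-4A than with YEXX-2A by 1.07 (edgeR adjusted p = 0.000105).

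Of 18 tested genes known as AP-1 targets, 9 were higher and 4 lower with YWCH-4A (median log2 change 0.37), and 1 was higher and 10 lower with YEXX-2A (median -0.24), both against vehicle. The YEXX-2A count of lower genes was 5 without YEXX-2A replicate 1, and 6 without replicate 2 or 3. On log2(FPKM + 1) the YWCH-4A counts were 12 higher and 1 lower. Mmp3, the stromelysin gene, had 1784.53, 1633 and 1601 FPKM with YWCH-4A, 62.1, 60.4 and 62.5 with YEXX-2A and 118, 120.19 and 111 in vehicle, so that YWCH-4A and YEXX-2A lay on opposite sides of vehicle. It rose by 3.66 on the log2 scale with YWCH-4A (SE 0.08, edgeR adjusted p = 7.32e-10) and fell by 1.006 with YEXX-2A (SE 0.07, edgeR adjusted p = 5.09e-05). Mmp9, the gelatinase B gene, and the chemokine gene Cxcl1 rose with YWCH-4A by 5.17 and 3.95 (edgeR adjusted p = 9.94e-10 and 1.38e-09). These targets are shared with other factors, Mmp9 and Cxcl1 with NF-κB among them, and the list does not separate AP-1 from those factors.

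SRF works with ternary complex factors and MRTF cofactors, of which 4 genes were tested. Elk3, a ternary complex factor gene, rose by 0.72 with YWCH-4A (SE 0.08, edgeR adjusted p = 5.09e-05), and Mrtfa fell by 0.51 with YWCH-4A and by 0.53 with YEXX-2A (edgeR adjusted p = 0.00346 and 0.00665), each against vehicle. Elk4, another such factor gene, rose by 0.53 with YWCH-4A and by 0.47 with YEXX-2A (edgeR adjusted p = 0.00659 and 0.0173). The second call was lost without YEXX-2A replicate 1 or 2 and in a fit of only the groups compared. The edgeR adjusted p there was up to 0.0658. In vehicle Elk4 had 81.79, 58.86 and 86.59 CPM, with replicate 2 lowest. Of 14 tested cytoskeletal targets of SRF and MRTF, 12 were lower and 1 higher with YWCH-4A (median -0.53), and 9 were lower and 1 higher with YEXX-2A (median -0.36), both against vehicle. With DESeq2 size factors 12 were lower and 1 higher with YWCH-4A, and 9 were lower and 0 higher with YEXX-2A. Tagln, an actin-binding protein gene of smooth muscle, had 1.67, 0.95 and 1.26 FPKM with YWCH-4A, 15.3, 13.66 and 15.04 with YEXX-2A and 45.4, 47.8 and 51.1 in vehicle, with no overlap. Acta2, the α-smooth muscle actin gene, fell by 1.63 with YWCH-4A and by 1.36 with YEXX-2A (edgeR adjusted p = 6.42e-07 and 5.09e-05). These falls stood beside Srf transcript levels that were not called against vehicle. The genes for the EGR1 corepressors moved apart with YWCH-4A, Nab2 by -0.48 and Nab1 by 0.46 (edgeR adjusted p = 0.00504 and 0.0305). The Nab1 call was lost without vehicle replicate 1, without any 1 YWCH-4A library and in a fit of only the groups compared. Its edgeR adjusted p there was up to 0.0903.

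MYC binds DNA with MAX, and MXD, MXI1, MNT and MLX proteins compete or connect within the same network. Of 10 tested partner genes, 5 were higher and none lower with YWCH-4A (median 0.31), against 1 higher and 2 lower with YEXX-2A, or 3 higher and 1 lower on log2(FPKM + 1). The YWCH-4A count was 3 without vehicle replicate 3 and without YWCH-4A replicate 2 or 3. Mxd4 and Mxi1, whose products oppose MYC, rose by 0.54 and 0.50 with YWCH-4A (edgeR adjusted p = 0.00127 and 0.00137), and Mlx rose by 0.40 (edgeR adjusted p = 0.00153).

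Of 20 MYC target genes, most of them for ribosome production, with Odc1, Srm, Cdk4 and Tfrc among the others, 9 were lower and none higher with YWCH-4A against vehicle (median -0.24), and 13 were lower and none higher with YWCH-4A against YEXX-2A (median -0.42). The first count was 15 without vehicle replicate 2, and the second was 8 without YWCH-4A replicate 1. On log2(FPKM + 1), where the median of all tested genes was 0.18 for YWCH-4A against vehicle, the first median was -0.06. With YEXX-2A, 4 were higher and 2 lower than in vehicle (median 0.06), with 7 and 4 without vehicle replicate 3 and 6 and 1 on log2(FPKM + 1), beside a lower Myc. Odc1, the first enzyme of polyamine synthesis, had 97.9, 97.6 and 95.7 FPKM with YWCH-4A, 165, 166 and 173 with YEXX-2A and 144, 149 and 151 in vehicle, a fall of 0.78 with YWCH-4A against vehicle (SE 0.06, edgeR adjusted p = 2.93e-06). Nolc1 and Polr1b, genes of ribosomal RNA production, fell by 0.46 and 0.61 with YWCH-4A (edgeR adjusted p = 0.000345 and 0.000738). Npm1, the nucleophosmin gene, rose by 0.86 with YEXX-2A (SE 0.19, edgeR adjusted p = 0.0115), a call lost without YEXX-2A replicate 2 (0.0539). In vehicle Npm1 had 156.3, 92.92 and 166.3 CPM, with replicate 2 lowest, and with YEXX-2A 241.4, 296.9 and 214.4 CPM.

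**Figure D4:**
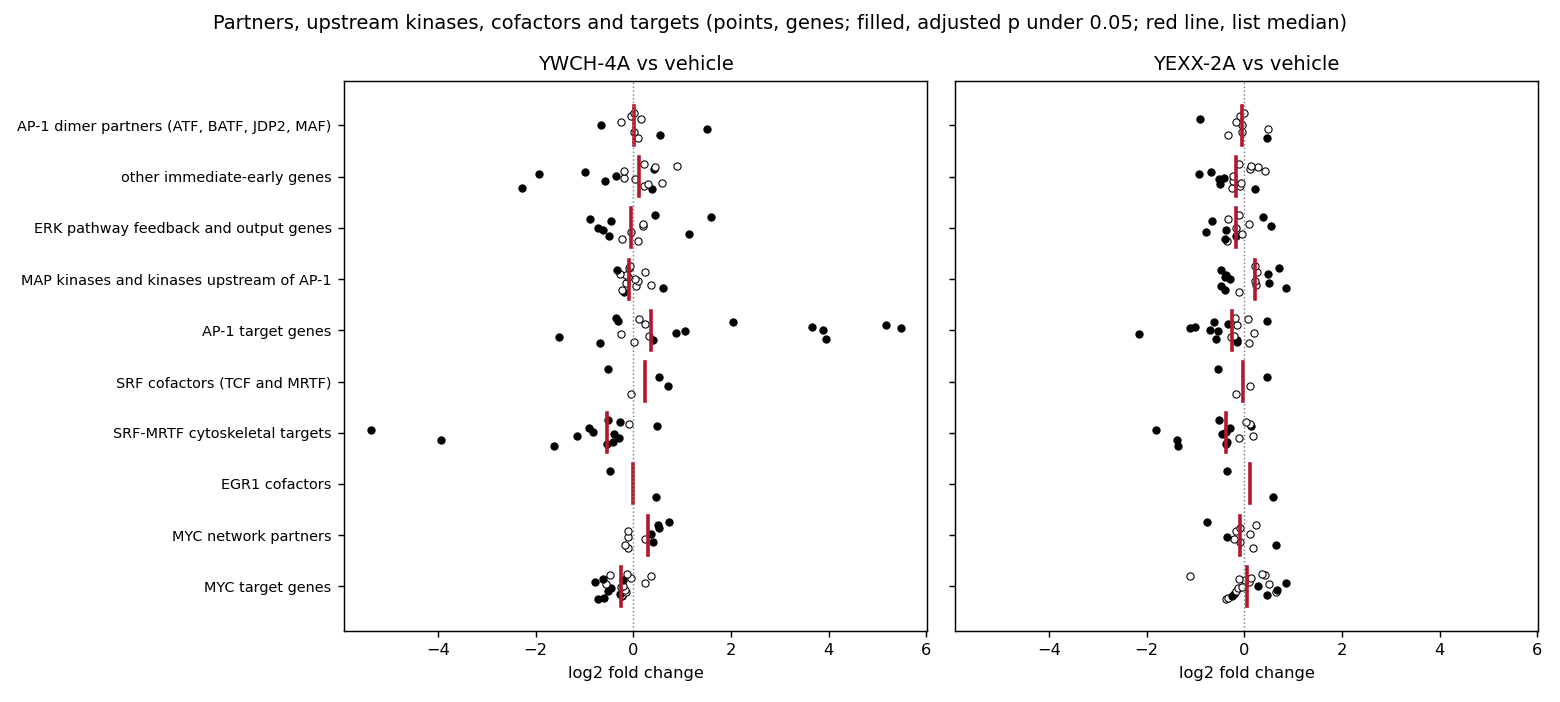
Log2 fold change against vehicle of genes around the 10 factors, grouped by role; points are genes (filled, adjusted p under 0.05 over all tested genes), red lines list medians. AP-1 targets spread far above 0 with YWCH-4A and lie mostly below 0 with YEXX-2A, while SRF and MRTF targets lie mostly below 0 with both; 1 kinase gene with a standard error above 2 log2 units is not drawn.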

How the data were processed

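RNA-seq libraries of 9 samples were compared, 3 each with YWCH-4A, YEXX-2A and vehicle, all with TGF-β1. The deposited gene table holds an estimated count and an FPKM value for each gene in each library, per the file headers; a deposited table of group values was not used. The submitters' processing notes name StringTie 1.3.1, RSEM, DESeq2 and edgeR without roles. The aligner, genome build and annotation are not given in the sources used here. Among deposited estimated counts over 0, 8.87% had a fraction (tolerance 0.001). Reads of overlapping antisense genes cannot be told apart from those of a gene, since no strand setting is stated.

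Estimated counts were rounded, filtered with filterByExpr (minimum count 10; 11473 genes left) and tested with edgeR 4.0.16, robust quasi-likelihood (TMM factors, all 9 libraries, group as the factor, Benjamini-Hochberg adjustment over all tested genes, two-sided) in R 4.3.3. Standard errors are |log2 change|/√F. The labels state biological replicates without saying how cultures were separated. The implied gene length is what counts and FPKM give together. The test was checked on simulated counts with the same spread in every library. The real groups differed in spread, so that check does not cover unequal spread. Alternatives were DESeq2 size factors, DESeq2 1.42.0, no or a stricter filter, limma 3.58.1 (voom with quality weights, and limma-trend on log2(FPKM + 1)), each library left out, a replicate block, and fits of only the groups compared; family sums on TMM-scaled CPM per kilobase were added after seeing the data. The members and lists were chosen with earlier results of these data known. From each list, up to 3 called genes per comparison with the smallest p and a mean of at least 1 CPM could be named; 1 AP-1 target is not reported here. Of 171 entries in all lists, markers included, 167 matched the table.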

Additional observations from a re-analysis of the deposited data

How the results depend on the processing

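Over the 17 alternatives, the 10 genes' log2 fold changes in the 3 comparisons kept their side of the threshold in 470 cases, lost the call in 28 and gained one in 12, and no called change reversed. Changes near 0 that were not called changed sign under some alternatives, those of Fosb and Fosl2 for YEXX-2A against vehicle and of Srf between the compounds. The YEXX-2A comparison with vehicle depended most on the fit: 4145 genes were called, but 1408 with only the groups compared, and between 1044 and 5308 with 1 library left out, the lowest without YEXX-2A replicate 2. The members called there were 5, then 2 with only the groups compared and between 2 and 6 with 1 library left out. For YWCH-4A against YEXX-2A, 3593 genes were called, 5994 with limma-voom and 5903 with only the groups compared, and between 2225 and 6001 with 1 library left out, the highest without vehicle replicate 2. The cause was not tested. The YWCH-4A calls against vehicle stayed between 2450 and 4588 genes with 1 library left out. No pairing by replicate number was seen in the correlations. Deviations of libraries of the same number correlated between -0.265 and 0.081. Of 9 libraries, 0 correlated best with their own number in both other groups, though some did in a single other group. With the replicate block, 1931 genes and 3 members were called for YEXX-2A against vehicle, without Fos (adjusted p = 0.0915) and Jun (0.0614), and 2787 genes and 6 members for YWCH-4A against vehicle. Of the AP-1 targets, 10 were lower with YEXX-2A than in vehicle, but 4 with limma-voom, 4 with only the groups compared and 6 with the replicate block or on log2(FPKM + 1). Depth limits Fos, with 3 to 8 counts in a YWCH-4A library. With 3 libraries a group, an exact permutation test cannot go below 0.1.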
